A study of Mus musculus with 6 samples.

Results

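The YAP, TAZ and TEAD pathway genes were described here by 10 members, given by name: the co-activators Yap1 and Wwtr1 (which encodes TAZ), the DNA-binding partners Tead1, Tead2, Tead3 and Tead4, the TEAD cofactor Vgll2, the target genes Ankrd1 and Amotl2, and the kinase gene Lats2. They are 10 of 25269 genes with a count in at least 1 library. Polyadenylated RNA of C2C12, an established mouse myoblast line, was sequenced in 2 libraries each of myotubes, reserve cells and myoblasts, which the submitters call biological replicates. Myotubes are the fused, multinucleated cells, and reserve cells are the mononucleated cells that stayed undifferentiated in the same cultures; both were collected after 7 days in low-serum differentiation medium, by the labels, and parted by mild trypsin treatment (the study's culture methods give a shorter time). Myoblasts were collected from growth medium at about 95% confluency. Medium and days of differentiation therefore differed wherever myoblasts were compared. Release by mild trypsin differed between myotubes and reserve cells. What part these had in a group difference cannot be told apart from that of cell type. No group carried a deletion, transgene or drug, and all 3 groups were the same line.

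In the Hippo pathway, a chain of kinases that ends in LATS1 and LATS2 phosphorylates YAP and TAZ and keeps them out of the nucleus. YAP and TAZ that escape it bind TEAD factors on DNA and raise target genes, and vestigial-like (VGLL) proteins bind the same TEAD surface. In mouse myoblasts YAP is known for keeping cells in growth, TAZ for helping MyoD, and TEAD factors for binding the MCAT element of many muscle promoters.

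Levels are in CPM, estimated counts relative to the TMM-scaled size of each library, and tests are edgeR quasi-likelihood tests over 15454 genes with Benjamini-Hochberg adjustment, called at an adjusted p under 0.05. The libraries held 15658875 to 20055078 estimated counts. The muscle markers were in the order of the labels: the summed level of 8 sarcomere and muscle genes was 30422 and 30321 CPM in myotubes, 7877 and 7869 in reserve cells and 199 and 189 in myoblasts. The 7 satellite and reserve cell markers summed to 386 and 375 CPM in myotubes, 759.8 and 759 in reserve cells and 696 and 700.4 in myoblasts. They did not set reserve cells apart from myoblasts in 1 direction: Cd34 and Spry1 were higher in reserve cells (log2 0.62 and 2.98), Myf5 and Hey1 lower (log2 −1.46 and −1.93), and Pax7, Notch3 and Sdc4 were not called. In myotubes over reserve cells 5 of the 7 were lower, 0 were higher, and Spry1 and Sdc4 were not called. Endothelial, leukocyte, neural and adipocyte markers summed to at most 3.74 CPM a list in any library. The muscle genes in the reserve cell libraries bear on every value of that group given here: myotube RNA among reserve cells and muscle genes expressed by reserve cells cannot be told apart, nor, in any of these bulk libraries, can fewer cells of a type and less RNA per cell.

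All 10 members passed the filter on low counts. Most differed between groups, as did many genes. In myotubes over myoblasts 9 of 10 members passed the test, 6 higher and 3 lower, where 65.3% of all genes tested passed it (32.7% higher and 32.7% lower). In reserve cells over myoblasts 9 of 10 passed it, again 6 higher and 3 lower, against 46.2% of all genes (24.4% higher, 21.8% lower). In myotubes over reserve cells 7 of 10 passed it, 3 higher and 4 lower, against 55.7% of all genes (27.2% higher, 28.5% lower). The median log2 fold change of the members was 0.59, 0.72 and 0.32 in these comparisons, and that of all genes tested was 0.00, 0.01 and −0.01. In each comparison the groups of 9 members did not overlap, where 83.0%, 74.8% and 78.3% of all genes had groups that did not overlap. Tead1 was the member whose groups overlapped in all 3.

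**Figure D1:**
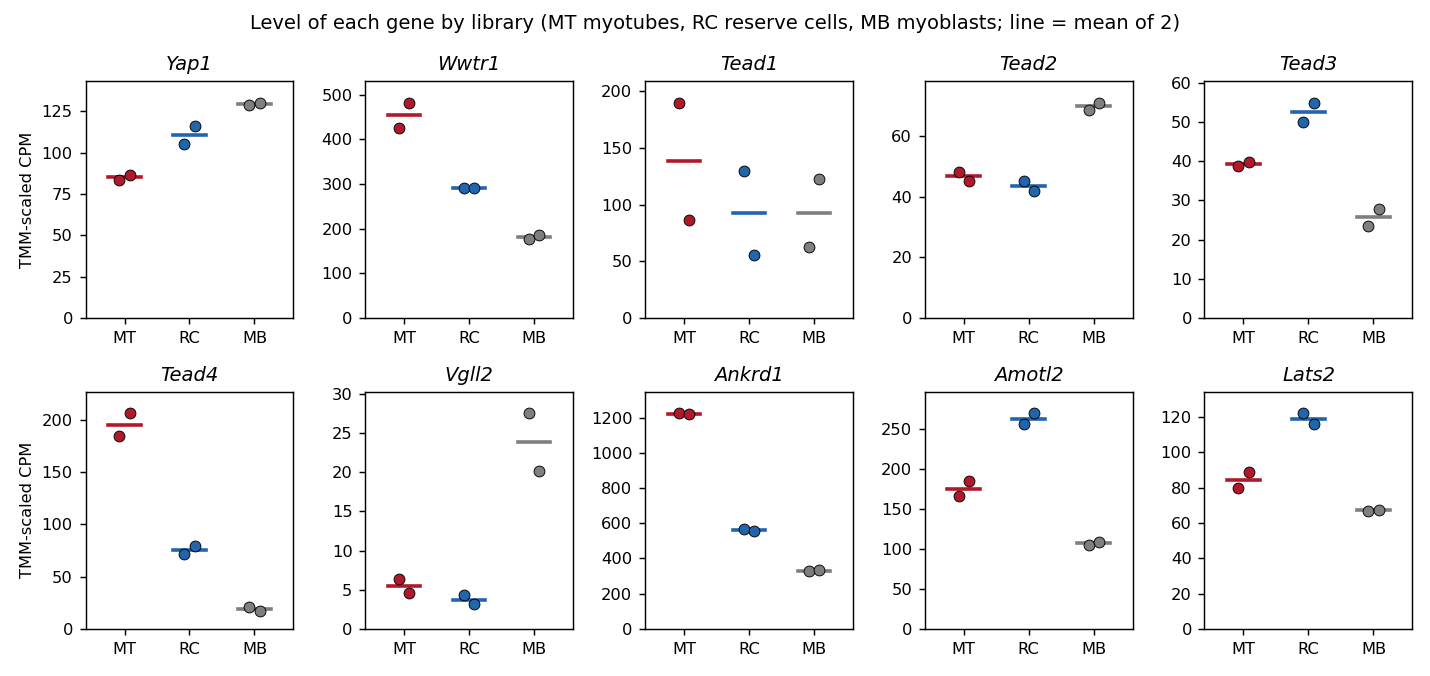
TMM-scaled CPM (vertical axes from 0, a scale for each gene) of the 10 genes in each library, with 2 points a group and a line at their mean, for myotubes (MT), reserve cells (RC) and myoblasts (MB). Tead4, Ankrd1 and Wwtr1 stand highest in myotubes, Tead3, Amotl2 and Lats2 in reserve cells, Yap1, Tead2 and Vgll2 in myoblasts, and the Tead1 points of every group lie far apart.

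The 2 co-activators moved in opposite directions. Wwtr1 (ENSMUSG00000027803.14, mm10 chr3:57455649-57575910, minus strand) had 426 and 482 CPM in myotubes, 292 and 291 in reserve cells and 178 and 187 in myoblasts. The 3 groups did not overlap, with myotubes highest and myoblasts lowest. Wwtr1 was 2.49-fold higher in myotubes than in myoblasts (log2 1.32, 95% interval 1.17 to 1.46, edgeR adjusted p = 2.8e-07). It was 1.60-fold higher in reserve cells than in myoblasts (log2 0.68, 0.54 to 0.82, edgeR adjusted p = 4.2e-05) and 1.56-fold higher in myotubes than in reserve cells (log2 0.64, 0.50 to 0.78, edgeR adjusted p = 4.0e-05).

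Yap1 (ENSMUSG00000053110.13, chr9:7931999-8004596, minus strand) had 83.8 and 86.5 CPM in myotubes, 105 and 116 in reserve cells and 129 and 130.3 in myoblasts. The order was the reverse of that of Wwtr1, again with no overlap. Yap1 was 1.52-fold lower in myotubes than in myoblasts (log2 −0.61, 95% interval −0.76 to −0.45, edgeR adjusted p = 7.3e-05). It was lower in myotubes than in reserve cells as well (log2 −0.37, −0.53 to −0.22, edgeR adjusted p = 0.00183). The difference between reserve cells and myoblasts was small (log2 −0.23, −0.39 to −0.07, edgeR adjusted p = 0.0232). Over 14 alternative analyses it ran from −0.30 to −0.16, and 10 of them kept the call. Leaving out myoblast replicate 1, myoblast replicate 2 or reserve cell replicate 1 was enough to lose it. Both other Yap1 calls were kept by 13 of the 14 and lost with the leading transcript in place of the gene.

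Levels of different genes were compared per length, as length-scaled TPM (each gene's share of the transcripts of a library) computed from the counts and annotated transcript lengths. TPM sums to the same total in each library and is not scaled with TMM factors. Wwtr1 had 185 ± 17.5 TPM in myotubes, 156 ± 1.52 TPM in reserve cells and 99.3 ± 3.69 TPM in myoblasts (SD, n = 2 each), against 39.5 ± 1.71 TPM, 73.1 ± 5.98 TPM and 86.0 ± 0.875 TPM of Yap1 in the same groups. The Wwtr1 level was 4.50 and 4.84 times the Yap1 level in myotubes, 2.25 and 2.03 times in reserve cells and 1.13 and 1.18 times in myoblasts. TAZ mRNA was therefore the larger share of the pair in all 6 libraries, by a ratio that did not overlap between groups. These ratios are a description with no test, since 2 libraries against 2 cannot give a small exact p.

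The 250 bases upstream of a Wwtr1 start annotated by RefSeq (GRCm38.p6, the assembly of mm10) are shown because they hold the core of the MCAT element. TEAD factors bind this core, CATTCC, and here it lies on the strand opposite to the gene and in no exon of GENCODE M21. The capitals mark the core, here read as GGAATG along the gene, 136 and 170 bases before the 2 annotated starts.
Wwtr1, chr3:57575911-57576160, minus strand: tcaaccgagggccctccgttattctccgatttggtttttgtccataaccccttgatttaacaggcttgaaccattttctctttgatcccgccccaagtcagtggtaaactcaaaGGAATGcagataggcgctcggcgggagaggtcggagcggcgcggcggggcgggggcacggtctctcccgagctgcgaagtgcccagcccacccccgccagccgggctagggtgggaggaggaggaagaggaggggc

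The same letters were looked for, on both strands, in windows from 250 bases before to 50 after each RefSeq start. Windows were at hand for 8 of the 10 members (not for Tead1 and Tead4), and 6 of these 8 held the core: Wwtr1, Yap1, Amotl2, Lats2, Tead3 and Ankrd1. Of the members' 12 windows, some of which overlap, 8 held it. Of all 27025 RefSeq genes with a window, 16.6% held it (14.7% of 32851 windows). In the pathway lists described below, the core was in 3 of 11 Hippo kinase core genes with a window and in 3 of 3 other vestigial-like genes. It was also in 3 of 7 junction regulators and 4 of 12 other targets, with Ptpn14 in both of these lists. The windows of Tead2 and Vgll2 did not have these letters. CAGCTG, a form of the E-box bound by MyoD, was in none of the 12 windows of the members and in 16.3% of all windows. Short stretches around the core are given for the other members, with the core or its reverse complement in capitals, since the direction of expression differs among genes that share it.
Yap1, chr9:8004720-8004749, minus strand: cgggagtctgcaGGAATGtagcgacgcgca
Tead3, chr17:28350970-28350999, minus strand: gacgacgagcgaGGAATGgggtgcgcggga
Tead3, chr17:28350706-28350735, minus strand: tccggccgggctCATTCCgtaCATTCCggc
Ankrd1, chr19:36120037-36120066, minus strand: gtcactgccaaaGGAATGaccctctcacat
Ankrd1, chr19:36119950-36119979, minus strand: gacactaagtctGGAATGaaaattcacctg
Amotl2, chr9:102717727-102717756, plus strand: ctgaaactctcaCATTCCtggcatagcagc
Lats2, chr14:57746102-57746131, minus strand: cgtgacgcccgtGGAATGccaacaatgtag

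The Yap1 core lay 141 bases before the start, outside annotated exons. Ankrd1 had 2 cores, 210 and 123 bases before the RefSeq start, both inside the 5′ UTR exon of the longer GENCODE transcript Ankrd1-205. Both cores lay after the annotated start of that transcript, and before that of the other Ankrd1 transcripts. Ankrd1-205 held 92.2% to 97.3% of Ankrd1 counts in each library. That share rests on how StringTie divided reads between transcripts, and where transcription began was not measured. The Amotl2 core lay 65 bases before the RefSeq start but in the 5′ UTR exon of Amotl2-201, which held 98% to 99.2% of Amotl2 counts. The Lats2 core lay 5 bases after the RefSeq start, in the 5′ UTR exon of Lats2-201. Tead3 had 4 cores around its annotated starts, of which 3 are given, and its second stretch holds a pair of them. The core of its first stretch lay outside annotated exons. The pair lay in the 5′ UTR exon of Tead3-206, and the core not given lay in an exon of Tead3-201. These matches are a description of the sequence and not of binding, which was not measured.

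**Figure D2:**
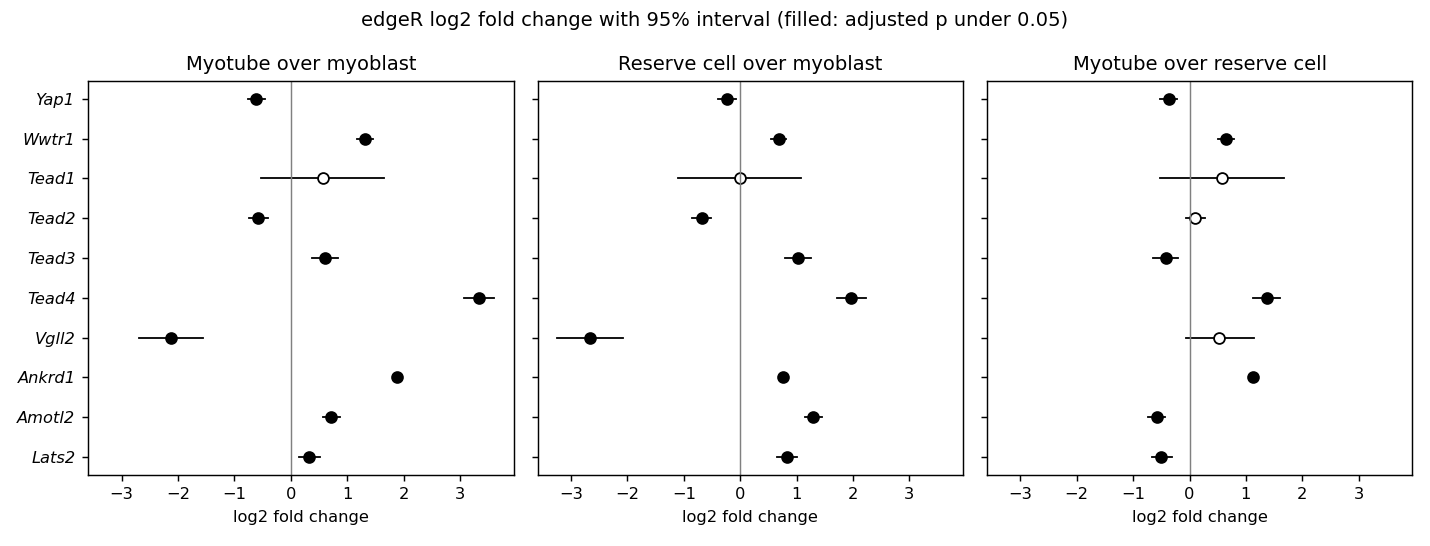
log2 fold change (horizontal axis) with its 95% interval from edgeR for the 10 genes in myotubes over myoblasts, reserve cells over myoblasts and myotubes over reserve cells, filled where the adjusted p was under 0.05. Tead4 reaches 3.34 and Vgll2 −2.13 in myotubes over myoblasts, and the Tead1 interval crosses 0 in every panel.

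Tead4 was the member with the largest rise. In mouse muscle cells it is known as a gene that MyoD and myogenin bind. Tead4 (ENSMUSG00000030353.15, chr6:128224288-128300823, minus strand) had 184 and 206 CPM in myotubes, 72.0 and 79.4 in reserve cells and 21.4 and 17.3 in myoblasts. Its groups were wide apart, and every myotube library stood over every reserve cell library. It was 10.1-fold higher in myotubes than in myoblasts (log2 3.34, 95% interval 3.07 to 3.61, edgeR adjusted p = 4.9e-08) and 3.93-fold higher in reserve cells than in myoblasts (log2 1.97, 1.71 to 2.24, edgeR adjusted p = 2.8e-06). Myotubes had 2.58-fold more than reserve cells (log2 1.37, 1.12 to 1.61, edgeR adjusted p = 1.2e-05).

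Tead2, a TEAD of early embryos and progenitor cells, had the opposite direction. Tead2 (ENSMUSG00000030796.17, chr7:45215753-45233644, plus strand) had 48.3 and 45.3 CPM in myotubes, 45.1 and 41.9 in reserve cells and 68.6 and 71.0 in myoblasts. In CPM the myoblasts were highest, and the other groups lay side by side. In TPM myotubes (36.2 and 38.8) lay under reserve cells (44.9 and 48.0), and myoblasts stayed highest (78.7 and 76.3). Tead2 was 1.49-fold lower in myotubes (log2 −0.58, 95% interval −0.75 to −0.40, edgeR adjusted p = 1.8e-04) and 1.60-fold lower in reserve cells (log2 −0.68, −0.86 to −0.51, edgeR adjusted p = 1.3e-04) than in myoblasts. Myotubes and reserve cells did not differ beyond the test's threshold (log2 0.10, −0.07 to 0.28, edgeR adjusted p = 0.277), and the sign of that difference turned to −0.10 with library totals in place of TMM factors.

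Tead3, another MCAT-binding TEAD, was highest in reserve cells. It (ENSMUSG00000002249.21, chr17:28331671-28350817, minus strand) had 38.8 and 39.7 CPM in myotubes, 50.0 and 54.9 in reserve cells and 23.6 and 27.8 in myoblasts. No groups overlapped in CPM. In TPM myotubes (26.2 and 26.8) overlapped myoblasts (21.6 and 26.8), and reserve cells stayed highest (42.4 and 47.6). Tead3 was 2.04-fold higher in reserve cells (log2 1.03, 95% interval 0.80 to 1.25, edgeR adjusted p = 5.4e-05) and 1.53-fold higher in myotubes (log2 0.61, 0.38 to 0.84, edgeR adjusted p = 6.6e-04) than in myoblasts. It was lower in myotubes than in reserve cells (log2 −0.42, −0.64 to −0.20, edgeR adjusted p = 0.00605). Each of these calls was kept by 13 of 14 alternative analyses and lost with the leading transcript in place of the gene. That transcript, the protein-coding Tead3-206, had 316 and 256 estimated counts in myotubes, 526 and 481 in reserve cells and 175 and 494 in myoblasts. The rise in myotubes over myoblasts was 0.33 with library totals (edgeR adjusted p = 0.0153) and as low as 0.15 among the alternatives. The retained-intron transcript Tead3-202 held 35.2% and 44.4% of Tead3 counts in myotubes, 44.5% and 41.5% in reserve cells and 25% and 14.3% in myoblasts.

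Tead1, the founding TEAD of muscle MCAT elements, gave no call, and its replicates disagreed. It (ENSMUSG00000055320.17, chr7:112679318-112906807, plus strand) had 189.9 and 86.7 CPM in myotubes, 129.6 and 55.7 in reserve cells and 63.0 and 123 in myoblasts. The replicates of a group lay 1.13, 1.22 and 0.96 apart on the log2 scale in myotubes, reserve cells and myoblasts, which is farther than in 93.5% to 95.5% of all genes tested. All pairs of groups overlapped. The log2 fold change was 0.57 in myotubes over myoblasts (95% interval −0.53 to 1.66, edgeR adjusted p = 0.325), −0.01 in reserve cells over myoblasts (−1.10 to 1.08, edgeR adjusted p = 0.991) and 0.57 in myotubes over reserve cells (−0.52 to 1.67, edgeR adjusted p = 0.338). These intervals reach past 1 on the log2 scale in every comparison and do not show that Tead1 was equal. Without myotube replicate 1 the sign turned in both comparisons of myotubes (log2 −0.11 over myoblasts and −0.10 over reserve cells).

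In reserve cells and myoblasts most of the Tead1 spread was in transcript Tead1-202, by counts not scaled for depth. It had 1439 and 1017 estimated counts in myotubes, 2097 and 657 in reserve cells and 0 and 1440 in myoblasts. In myoblast replicate 1 nearly all Tead1 counts (93.2%) went to Tead1-201 instead. Tead1-201 had 744 and 312 estimated counts in myotubes, 374 and 374 in reserve cells and 1006 and 910 in myoblasts. In the myotube libraries both transcripts were lower in replicate 2. These 2 transcripts differ in start, and how StringTie divided reads between them was not tested as a source of the spread. Yap1 also had a shifting division, with 321 and 1061 counts of Yap1-202 beside 855 and 400 of Yap1-201 in the myotube libraries, but its gene totals agreed between replicates.

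**Figure D3:**
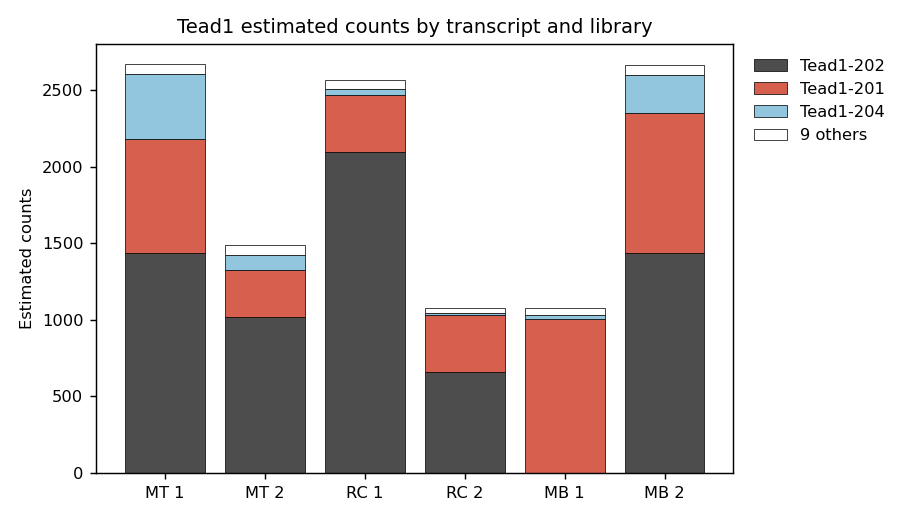
Estimated counts of Tead1 (vertical axis) by transcript in each library of myotubes (MT), reserve cells (RC) and myoblasts (MB), stacked. Tead1-202 holds 2097 counts in reserve cell library 1 and 657 in library 2, and 0 in myoblast library 1 against 1440 in library 2.

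Set side by side per length, the 4 TEAD genes changed order between the groups. In myotubes Tead4 had 55.0% and 63.0% of the summed TEAD level, in reserve cells 34.1% and 39.5%, and in myoblasts 13.9% and 10.2%. Tead2 had 15.5% and 17.0% in myotubes, 24.2% and 26.2% in reserve cells and 57.7% and 49.4% in myoblasts. Tead4 was therefore the most abundant TEAD mRNA in both myotube and both reserve cell libraries, and Tead2 in both myoblast libraries.

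Tead3 had 11.2% and 11.7% in myotubes, 22.9% and 26.0% in reserve cells and 15.9% and 17.3% in myoblasts. Tead1 had 18.4% and 8.24% in myotubes, 18.8% and 8.25% in reserve cells and 12.5% and 23.0% in myoblasts, with overlap throughout. Without Tead1, Tead4 made up 67.3% and 68.7% of the other TEAD level in myotubes, 42.0% and 43.1% in reserve cells and 15.9% and 13.3% in myoblasts. As a description with no test, the lead of Tead4 in myotubes and of Tead2 in myoblasts thus stood with and without the gene whose replicates disagreed. By unscaled counts, which favour the long Tead1 mRNA, Tead1 led in myotube library 1 (41.2%), in reserve cell library 1 (43.7%) and in myoblast library 2 (51.4%).

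**Figure D4:**
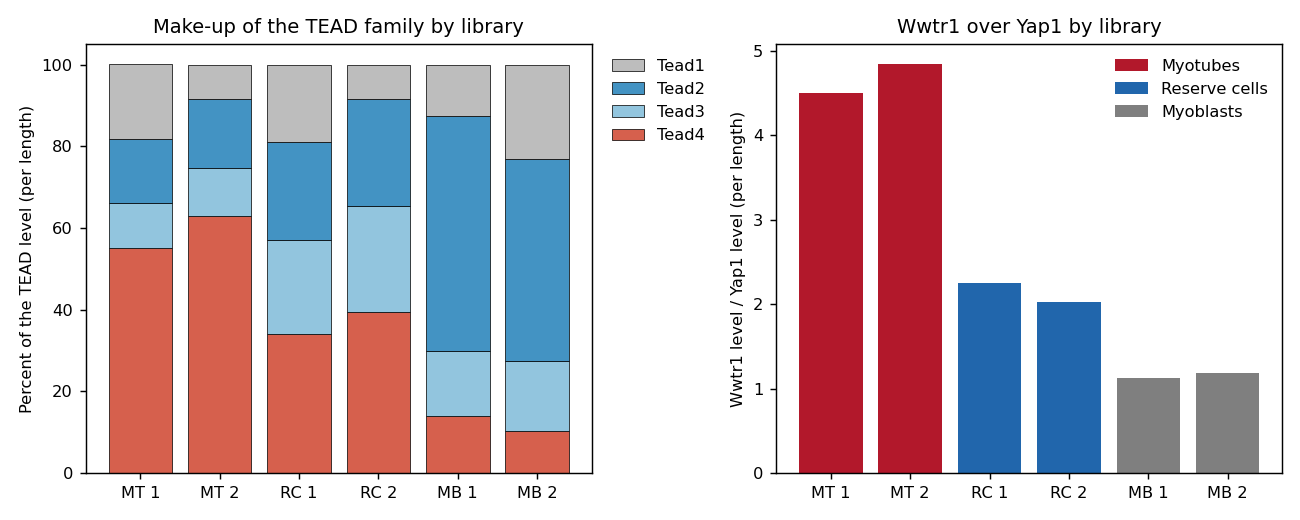
Left, percent of the summed length-scaled level of Tead1 to Tead4 held by each gene in every library of myotubes (MT), reserve cells (RC) and myoblasts (MB). Right, the Wwtr1 level over the Yap1 level in the same libraries, which is 4.50 and 4.84 in myotubes, 2.25 and 2.03 in reserve cells and 1.13 and 1.18 in myoblasts.

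Vgll2, a muscle-enriched vestigial-like cofactor of TEAD factors, was the member with the largest fall. Vgll2 (ENSMUSG00000049641.14, chr10:52022502-52028471, plus strand) had 6.33 and 4.59 CPM in myotubes, 4.34 and 3.16 in reserve cells and 27.5 and 20.2 in myoblasts. It rested on few reads, with 89 and 79 counts in myotubes, 86 and 61 in reserve cells and 471 and 438 in myoblasts. Myotubes and reserve cells both lay under the myoblasts. Vgll2 was 4.38-fold lower in myotubes (log2 −2.13, 95% interval −2.70 to −1.55, edgeR adjusted p = 9.1e-05) and 6.34-fold lower in reserve cells (log2 −2.66, −3.25 to −2.08, edgeR adjusted p = 5.7e-05) than in myoblasts. The difference of myotubes over reserve cells did not pass the test (log2 0.53, −0.07 to 1.14, edgeR adjusted p = 0.119).

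The other vestigial-like genes did not share its pattern. Vgll3, which like Vgll2 encodes a TEAD cofactor, had 86.3 and 91.1 CPM in myotubes, 111 and 122 in reserve cells and 57.7 and 59.8 in myoblasts. It was higher than in myoblasts in both (log2 0.59, edgeR adjusted p = 1.5e-04 in myotubes; log2 0.99, edgeR adjusted p = 1.5e-05 in reserve cells). Vgll4, known as a repressor that competes with YAP for TEAD, had 39.6 and 40.7 CPM in myotubes, 72.2 and 77.4 in reserve cells and 63.9 and 62.7 in myoblasts. It was lower in myotubes (log2 −0.66, edgeR adjusted p = 6.4e-05) and higher in reserve cells (log2 0.24, edgeR adjusted p = 0.0233) than in myoblasts. With library totals the difference in reserve cells was 0.17 and not called (edgeR adjusted p = 0.0818). Vgll1 had 0 counts in every library.

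Ankrd1 encodes a muscle ankyrin repeat protein that binds titin and is widely used as a YAP/TAZ target. It was the most abundant member per length in all 3 groups, at 1159 ± 4.45 TPM in myotubes, 701 ± 2.75 TPM in reserve cells and 422 ± 3.33 TPM in myoblasts (SD, n = 2 each). Ankrd1 (ENSMUSG00000024803.9, chr19:36111961-36120099, minus strand) had 1224 and 1218 CPM in myotubes, 567 and 553 in reserve cells and 330.0 and 332 in myoblasts. Replicates lay within 0.04 of each other on the log2 scale, and no groups overlapped. It was 3.69-fold higher in myotubes (log2 1.88, 95% interval 1.81 to 1.96, edgeR adjusted p = 1.0e-09) and 1.69-fold higher in reserve cells (log2 0.76, 0.68 to 0.83, edgeR adjusted p = 4.3e-07) than in myoblasts. Myotubes had 2.18-fold more than reserve cells (log2 1.12, 1.05 to 1.20, edgeR adjusted p = 4.7e-08).

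Amotl2, both a YAP/TAZ target and an angiomotin that holds YAP in the cytoplasm, was highest in reserve cells. It (ENSMUSG00000032531.15, chr9:102716672-102733418, plus strand) had 166 and 185 CPM in myotubes, 256 and 269.8 in reserve cells and 105 and 109 in myoblasts, without overlap. Amotl2 was 2.47-fold higher in reserve cells (log2 1.30, 95% interval 1.15 to 1.45, edgeR adjusted p = 1.1e-06) and 1.64-fold higher in myotubes (log2 0.72, 0.57 to 0.87, edgeR adjusted p = 1.7e-05) than in myoblasts. It was 1.50-fold lower in myotubes than in reserve cells (log2 −0.58, −0.73 to −0.44, edgeR adjusted p = 8.7e-05).

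Lats2, the kinase that phosphorylates YAP and TAZ and is itself a known YAP/TAZ target, had the same order of groups as Amotl2. It (ENSMUSG00000021959.16, chr14:57689662-57758388, minus strand) had 79.6 and 88.6 CPM in myotubes, 122 and 116 in reserve cells and 66.5 and 67.5 in myoblasts. The 3 groups did not overlap. Lats2 was 1.77-fold higher in reserve cells than in myoblasts (log2 0.83, 95% interval 0.65 to 1.00, edgeR adjusted p = 4.8e-05) and lower in myotubes than in reserve cells (log2 −0.50, −0.67 to −0.32, edgeR adjusted p = 6.7e-04). Its rise in myotubes over myoblasts was small (log2 0.33, 0.15 to 0.51, edgeR adjusted p = 0.00527) and depended on scaling: with library totals it was 0.05 (adjusted p = 0.576), and in TPM, which is also relative to the library total, Lats2 had 29.8 and 33.7 in myotubes against 34.0 and 34.1 in myoblasts.

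Where the reserve cells lay between the other groups differed by member. With myoblasts at 0% and myotubes at 100% of the difference in mean CPM, reserve cells stood at 25.7% for Ankrd1, 32.1% for Tead4, 40.1% for Wwtr1 and 43.0% for Yap1. The 8 muscle markers stood at 20.0% to 31.9% (median 20.9%), so Ankrd1 lay inside their range and Tead4 just above it. Both also did so on 2 other scales: with library totals Ankrd1 stood at 29.9% and Tead4 at 37.2%, against 23.1% to 36.8% for the muscle markers, and in TPM at 37.8% and 42.3%, against 26.4% to 42.0%. Yap1 and Wwtr1 depended more on the scale, at 41.3% and 49.6% with library totals and at 27.7% and 66.4% in TPM, where Yap1 lay inside the range of the muscle markers. The 8 cell cycle markers, which fell in both groups, stood at 55.8% to 84.5% (median 64.1%) in CPM. What part myotube RNA or leaving the cell cycle had in the members' values was not tested.

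The rest of the pathway was read from lists of 45 genes, of which 44 were tested. In myotubes over myoblasts 13 of the 44 were higher and 25 lower. With library totals 9 were higher and 29 lower, since that scaling moved the median of all genes to −0.27 and the higher share of all calls to 36.6%, against 50.0% with TMM factors. In reserve cells over myoblasts 20 were higher and 15 lower, beside a higher share of 52.7% among the calls of all genes, and with library totals 18 were higher and 17 lower, beside 45.5%. In myotubes over reserve cells 9 were higher and 28 lower, and with library totals, which moved the median of all genes to −0.21 and the higher share of all calls to 34.1% (against 48.9%), 6 were higher and 32 lower. Of all genes tested, 65.3% were called in myotubes over myoblasts, 46.2% in reserve cells over myoblasts and 55.7% in myotubes over reserve cells, and the counts of each list are given beside these shares as a description.

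Of the 13 genes of the Hippo kinase core, 3 were higher and 6 lower in myotubes over myoblasts (median log2 −0.09), 4 higher and 6 lower in reserve cells over myoblasts (−0.10), and 4 higher and 4 lower in myotubes over reserve cells (−0.04). The called share of this list was 69.2%, 76.9% and 61.5% in the 3 comparisons, where 65.3%, 46.2% and 55.7% of all genes were called. Its split depended on scaling: with library totals 1 was higher and 8 lower in myotubes over myoblasts (median log2 −0.36) and also in myotubes over reserve cells (−0.25). Taok1, a kinase that activates the MST kinases, had 423 and 460.0 CPM in myotubes, 300.2 and 339.7 in reserve cells and 203 and 231 in myoblasts, and was 2.04-fold higher in myotubes than in myoblasts (edgeR adjusted p = 7.4e-06). Mob1a, the scaffold of LATS kinases, had 76.0 and 75.1 CPM in myotubes, 203 and 192 in reserve cells and 236 and 236 in myoblasts. It was 3.12-fold lower in myotubes than in myoblasts (edgeR adjusted p = 2.6e-08) and only slightly lower in reserve cells (log2 −0.26, edgeR adjusted p = 0.00350). Nf2, which encodes the upstream activator merlin, was slightly higher in reserve cells than in myoblasts (log2 0.38, edgeR adjusted p = 0.00139), and remained so with library totals (log2 0.30, edgeR adjusted p = 0.00393). Map4k4, a further kinase that acts on LATS, was also slightly higher in reserve cells (log2 0.25, edgeR adjusted p = 6.5e-04, and 0.18 with library totals, edgeR adjusted p = 0.00344). In myotubes over myoblasts neither held on both scales: Nf2 had a log2 fold change of 0.40 (edgeR adjusted p = 5.7e-04) with TMM factors and 0.12 (adjusted p = 0.126) with library totals, and Map4k4 0.21 (edgeR adjusted p = 9.2e-04) and −0.06 (adjusted p = 0.150).

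Of the 11 genes for proteins that bind YAP or TAZ or regulate them from cell junctions, 5 were higher and 4 lower in myotubes over myoblasts, 6 higher and 4 lower in reserve cells over myoblasts, and 4 higher and 7 lower in myotubes over reserve cells. That is 81.8%, 90.9% and 100% of the list called, beside 65.3%, 46.2% and 55.7% of all genes. With library totals 4 were higher and 6 lower in myotubes over myoblasts, so which direction held more calls depended on the scaling there. Scrib, a polarity scaffold, had 357 and 350.3 CPM in myotubes, 167 and 159 in reserve cells and 108 and 111 in myoblasts, 3.23-fold higher in myotubes than in myoblasts (edgeR adjusted p = 1.6e-08). Amotl1, an angiomotin like Amotl2, was highest in another group than Amotl2: it had 416 and 445 CPM in myotubes, 272 and 280.4 in reserve cells and 252 and 239.9 in myoblasts. Ptpn14, a phosphatase that binds YAP, had 45.7 and 51.0 CPM in myotubes, 142 and 153 in reserve cells and 171 and 191 in myoblasts. It fell in myotubes over myoblasts by 1.90 on the log2 scale (edgeR adjusted p = 2.0e-07), and the junction protein gene Frmd6 fell by 1.79 (edgeR adjusted p = 5.3e-08).

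Most other known YAP/TAZ targets were lower in myotubes than in either other group, where Ankrd1 was higher. Amotl2 and Lats2 were also higher in myotubes than in myoblasts, Lats2 depending on scaling, but both were lower than in reserve cells. Of 19 such genes, 4 were higher and 15 lower in myotubes over myoblasts (median log2 −0.92), 8 higher and 6 lower in reserve cells over myoblasts (0.20), and 1 higher and 16 lower in myotubes over reserve cells (−1.12). All of the list, 73.7% and 89.5% were called, beside 65.3%, 46.2% and 55.7% of all genes, and of all genes 32.7%, 21.8% and 28.5% were called lower. With library totals 3 were higher and 15 lower, 8 higher and 7 lower, and 1 higher and 16 lower. Ptpn14 stands in this list as well as in the list before it. The single target that was higher in myotubes than in reserve cells was Gadd45a, a growth arrest gene, with 408 and 451 CPM in myotubes, 295 and 291 in reserve cells and 57.1 and 56.4 in myoblasts.

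Ccn1 and Ccn2 encode secreted matrix proteins and are the best known YAP/TAZ targets. Ccn1 had 61.6 and 66.1 CPM in myotubes, 299 and 339 in reserve cells and 196 and 199 in myoblasts. It was 3.09-fold lower in myotubes (log2 −1.63, edgeR adjusted p = 1.8e-07) and 1.61-fold higher in reserve cells (log2 0.69, edgeR adjusted p = 6.7e-05) than in myoblasts. Ccn2 had 70.6 and 66.2 CPM in myotubes, 325 and 334 in reserve cells and 84.5 and 80.5 in myoblasts. It was 3.99-fold higher in reserve cells than in myoblasts (log2 2.00, edgeR adjusted p = 4.1e-08) and slightly lower in myotubes than in myoblasts (log2 −0.27, edgeR adjusted p = 0.00325). In myotubes over reserve cells both were lower, Ccn1 by 4.99-fold (edgeR adjusted p = 7.0e-08) and Ccn2 by 4.82-fold (edgeR adjusted p = 2.6e-08), where Ankrd1 was 2.18-fold higher.

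The upstream window of Ccn1 is shown beside those of the members because it holds the same TEAD core as Ankrd1 while its level went the other way in myotubes. The core, in capitals, lay 103 bases before the RefSeq start and in no annotated exon.
Ccn1, chr3:145649986-145650235, minus strand: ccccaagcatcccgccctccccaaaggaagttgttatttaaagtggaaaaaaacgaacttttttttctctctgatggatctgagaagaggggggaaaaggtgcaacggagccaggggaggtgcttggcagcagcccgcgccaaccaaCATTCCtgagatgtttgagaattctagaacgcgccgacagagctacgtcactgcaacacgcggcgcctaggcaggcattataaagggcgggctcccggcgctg

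Among the most abundant of the other targets, Axl, a receptor tyrosine kinase, had 122 and 122 CPM in myotubes, 396 and 386 in reserve cells and 452 and 431 in myoblasts. Ccdc80, a matrix protein gene, had 92.8 and 103 CPM in myotubes, 577 and 586 in reserve cells and 208 and 194 in myoblasts. Myof, a membrane repair and fusion protein gene, had 383 and 425 CPM in myotubes, 594 and 575 in reserve cells and 728 and 732 in myoblasts. All 3 were lower in myotubes than in either other group (edgeR adjusted p between 4.2e-05 and 5.5e-09). The summed level of 8 fibroblast and matrix genes was also lowest in myotubes: it was 986 and 986 CPM in myotubes, 5389 and 5289 in reserve cells and 3740.0 and 3726 in myoblasts. The sum was highest in reserve cells, as was Ccdc80, while Axl and Myof were highest in myoblasts. Of these 8, Lum and Thy1 were at or near 0 in every library. Of the 6 tested, 4 were higher in reserve cells than in myoblasts, Pdgfra was lower (log2 −0.88) and Col1a2 was not called. In myotubes over myoblasts 5 were lower and Dcn was not called. The part of matrix genes as a whole in the targets' values was not tested.

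**Figure D5:**
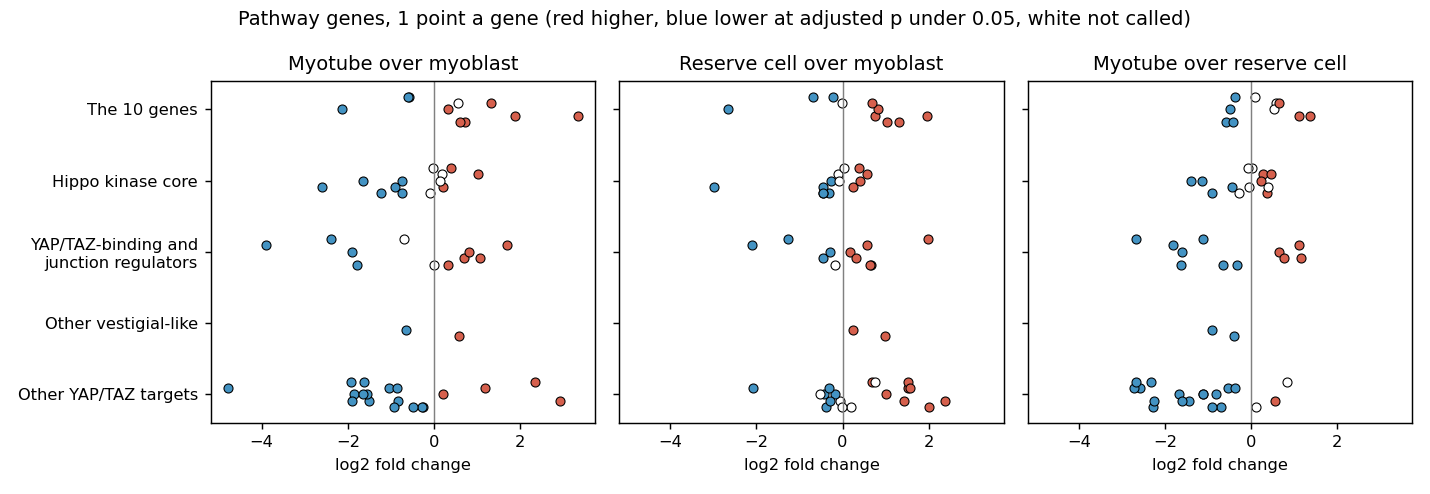
log2 fold change (horizontal axis, 1 point a gene) of the 10 genes and of the 4 pathway lists in myotubes over myoblasts, reserve cells over myoblasts and myotubes over reserve cells, red where higher and blue where lower at an edgeR adjusted p under 0.05, white where not called. Of the 19 other targets, 15 lie lower in myotubes over myoblasts and 16 lower in myotubes over reserve cells.

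The genes whose pattern over the 6 libraries was most like a member's were found among 9360 genes, by the Euclidean distance between centred log2 CPM. The nearest to Tead3 was Vgll3 (distance 0.14), to Tead4 Mboat2 (0.24), to Ankrd1 Bag1 (0.08), to Wwtr1 Edem3 (0.07), to Yap1 Dcp1a (0.07), to Tead2 Glul (0.09), to Amotl2 Crebl2 (0.18) and to Lats2 Ezh1 (0.12). Vgll2 and Tead1 had no close neighbour, with Gstm1 at 0.83 and Dmac1 at 0.94. No other member and, apart from Vgll3, no gene of the pathway lists was the nearest to a member.

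Other genes overlap 3 members. The antisense gene Gm20416 shares 116 bases with Yap1 and Gm49361 shares 2955 bases with Lats2 on its strand, and both had 0 counts. Cd37 shares 13 bases with Tead2 on the other strand and had 10 counts over the 6 libraries. Since strandedness is not stated, reads of a member and of its antisense partner in these bases could not be told apart.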

How the data were processed

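The members and the gene lists were chosen with earlier results of these data known. Per the labels and the study's methods, the authors aligned paired reads to mm10 with HISAT2, filtered them with SAMtools, quantified transcripts with StringTie and used DESeq2; the sources used here state no program version, annotation release or strandedness. The authors deposited estimated counts of each transcript per library, in whole numbers. A second deposited table, of the series as a whole, carries 2 times these values (or that less 1) and was not used. Here 141374 of 142604 transcripts were matched to genes of GENCODE M21 by identifier and summed by symbol; unmatched ones (0.375% to 0.872% of counts) were tested under their own identifiers. Genes passing filterByExpr (minimum count 10) were tested in edgeR 4.0.16 (R 4.3.3) with TMM factors by the quasi-likelihood F test (glmQLFit, glmQLFTest), all 6 libraries in 1 fit without a block, and Benjamini-Hochberg adjustment over all genes tested, after the code had been tested on simulated data. TPM was computed from counts and transcript lengths weighted by use. Promoter windows are from RefSeq (GRCm38.p6), other coordinates from GENCODE. Totals of 15658875 to 20055078 limit precision by counting, and p-values measure the spread between 2 libraries a group, whose origin in separate cultures is not described further. Named genes were all members, the 4 most abundant tested genes of each pathway list (all of the vestigial-like list), Ccn1 and Ccn2, and the genes nearest in pattern. DESeq2 1.42.0, other scalings and filters, a replicate block, single transcripts and leaving out each library were alternatives.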

Additional observations from a re-analysis of the deposited data

How the results depend on the processing

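Of 420 repeats of a member's test, 398 kept the direction and the side of the threshold, 13 lost the call, 1 gained it and 8 changed sign. Wwtr1, Tead4, Ankrd1 and Amotl2 kept every call under all 14 alternatives. By its leading transcript in place of the gene, 5 members passed in myotubes over myoblasts, against 9, with 6 in reserve cells over myoblasts, against 9, and 5 in myotubes over reserve cells, against 7. Without myotube replicate 1, the log2 fold change of Tead1 was −0.11 in myotubes over myoblasts and −0.10 in myotubes over reserve cells. Leaving out each library gave −0.11 to 1.12 and −0.10 to 1.30 in these comparisons, and −0.75 to 0.56 in reserve cells over myoblasts. In reserve cells over myoblasts Tead1 (−0.01) became 0.00 with at least 5 CPM in 2 libraries, 0.00 with the 4 libraries compared alone, 1.03 by transcript, 0.56 without myoblast replicate 2 and 0.48 without reserve cell replicate 2. Tead2 in myotubes over reserve cells became −0.10 with library totals. Of 48 tests of 16 other named pathway genes repeated with library totals, chosen after seeing the data, 41 kept their direction and side of the threshold, 3 lost the call, 2 gained it and 2 changed sign, Map4k4 in myotubes over myoblasts (−0.06) and Nf2 in myotubes over reserve cells (−0.19).

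Leaving out 1 library gave 9 to 9 member calls in myotubes over myoblasts, 8 to 9 in reserve cells over myoblasts and 7 to 7 in myotubes over reserve cells, and 35 to 38, 28 to 37 and 32 to 34 pathway genes. The replicate numbers did not pair the samples (correlations of deviations 0.003, 0.039 and −0.028). With the numbers as a replicate block the member calls were 9, 9 and 8 and the pathway calls 38, 34 and 36; the gain was Vgll2 in myotubes over reserve cells (log2 0.54, edgeR adjusted p = 0.0383).

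The TEAD shares moved with the length scaling, with the cause in its construction. With counts not scaled by length, Tead1 had 32.1%, Tead2 11.2%, Tead3 9.47% and Tead4 47.2% in myotubes, 33.9%, 16.6%, 20.3% and 29.2% in the reserve cells, and Tead1 43.6%, Tead2 34.3% and Tead3 12.5% in myoblasts. With the longest transcript, Tead2 had 13.4% of the level in myotubes, 20.7% in the reserve cells and 47.3% in myoblasts. Without Tead1, chosen after seeing the data, Tead2 had 18.8%, 29.2% and 65.1%, Tead3 13.2%, 28.2% and 20.3%, and Tead4 68% in myotubes and 42.6% in reserve cells. The Wwtr1 level over Yap1 was 5.33 (counts) and 5.99 (longest transcript) in myotubes, 2.65 and 2.98 in the reserve cells and 1.41 and 1.58 in myoblasts, so the order of groups stayed.

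With 2 libraries a group and transcript counts that StringTie divided, levels of single isoforms are uncertain, Vgll2 rests on 61 to 471 counts, and protein, phosphorylation and location of YAP and TAZ were not measured.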
